A study of Mus musculus with 11 samples.

Results

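The fatty acid oxidation enzymes described here are 9 genes that were listed by name as members of the carnitine shuttle, of mitochondrial beta-oxidation or as their regulator, chosen by a rule that uses no measured value. They are Cpt1a, Slc25a20 and Cpt2 of the carnitine shuttle, the acyl-CoA dehydrogenases Acadvl, Acadl and Acadm, the trifunctional protein genes Hadha and Hadhb, and the nuclear receptor gene Ppara. They make up 9 of the 55416 gene identifiers of the table. A mean normalized count of at least 10 was required for testing, and 8 of the 9 passed. Ppara did not. Expression was measured by polyA RNA-seq in EC4, a single mouse liver cancer line whose genotype the labels give as MYC on or MYC off. Cells grown at 200 µM methionine were moved for 24 h to DMEM with either 10 or 200 µM of this amino acid. The groups were MYC high (MYC on) cells at 10 µM (n = 3), MYC high cells at 200 µM (n = 2), MYC low (MYC off) cells at 10 µM (n = 3) and MYC low cells at 200 µM (n = 3). Of MYC high cells at 200 µM, replicate 1 is not analysed here. How MYC was switched, and whether replicates were grown as separate cultures, is not given in the sources used here. P-values therefore cover the spread between these libraries, which could be technical only.

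Long-chain fatty acids cross into the mitochondrial matrix as acylcarnitines. CPT1A on the outer membrane transfers the acyl group to carnitine, the carrier SLC25A20 exchanges acylcarnitine for carnitine across the inner membrane, and CPT2 hands the acyl group back to coenzyme A. In the matrix an acyl-CoA dehydrogenase takes the first oxidation step, with very long chains handled by ACADVL, long chains by ACADL and medium chains by ACADM, and the complex of HADHA and HADHB carries out the following steps on long chains. PPARA is a nuclear receptor that binds fatty acids and, in the fasting liver, raises transcription of many of these genes.

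Each library held 10858936 to 13085689 reads on genes. The normalized counts given below are reads divided by a size factor per library, as the authors deposited them. Mitochondrially encoded transcripts took 0.793% to 0.914% of reads in 10 µM MYC high cells, 0.839% to 0.870% in 200 µM MYC high cells, 1.52% to 1.58% in 10 µM MYC low cells and 1.67% to 1.74% in 200 µM MYC low cells. Mouse Myc separated the labels at 200 µM, with 2089 ± 106 normalized counts in MYC high cells (SD, n = 2) and 1136 ± 31.3 in MYC low cells (SD, n = 3). At 10 µM it did not, with 336 ± 39.2 normalized counts in MYC high cells and 336 ± 13.5 in MYC low cells (SD, n = 3 each), so Myc does not check the labels there. Whether the switched MYC is counted as mouse Myc at all is not given in the sources used here, which limits this check in both media. The defining hepatocyte genes Alb, Serpina1a, Cyp3a11, Cyp2e1, Cps1 and Fabp1 had 0 reads in all 11 libraries, and the 10 hepatocyte markers summed to at most 1.94 normalized counts in a library. The labelled tissue, liver, was therefore not visible in these markers.

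Acadm moved furthest of the members in low methionine, and Cpt2, Acadvl and Hadhb rose in both MYC states. In MYC high cells, 10 µM methionine raised Acadm 5.34-fold, Cpt2 1.89-fold, Acadvl 1.36-fold and Hadhb 1.20-fold over 200 µM, while Hadha fell 1.48-fold and Cpt1a fell 1.27-fold. In MYC low cells, 7 of the 8 tested members rose at 10 µM, led by Acadm at 1.89-fold and Cpt1a at 1.52-fold, and Hadha fell 1.06-fold. Cpt1a therefore moved in opposite directions in the 2 MYC states. The calls come from limma on log2(normalized count + 1), with Benjamini-Hochberg adjustment over all 12909 tested genes and a threshold of 0.05. By that rule 75.8% of all tested genes differed between 10 and 200 µM in MYC high cells, 37.9% in each direction, and 6 of 8 members did, 4 higher and 2 lower. In MYC low cells 59.4% of tested genes differed, 29.4% higher and 29.9% lower, and all 8 tested members did, 7 higher and 1 lower. The median log2 difference of the 8 members was 0.15 in MYC high cells and 0.32 in MYC low cells, against medians of -0.0039 and 0.0011 over all tested genes. Regardless of sign, the median size was 0.39 in MYC high cells, below the 0.51 of all tested genes. In MYC low cells it was 0.32, against 0.27 over all tested genes.

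Summed levels of markers of other cell types also differed between media. The 3 cholangiocyte markers summed to 11581 to 12737 normalized counts in 10 µM MYC high cells, 1605 to 1652 in 200 µM MYC high cells, 11151 to 11378 in 10 µM MYC low cells and 3273 to 3578 in 200 µM MYC low cells, mostly from Krt19. All 3 passed the filter, and at 10 µM against 200 µM Krt19 and Krt7 rose while Sox9 fell in both MYC states, by 1.79 in MYC high and by 0.74 in MYC low cells on the log2 scale (limma adjusted p = 1.38e-12 and 3.34e-05). The 4 macrophage markers summed to 873 to 906, 263 to 286, 929 to 973 and 482 to 533 normalized counts in the same order of groups, with 2 past the filter and the defining gene Ptprc at 0. The 5 fetal liver markers, of which Afp alone passed the filter, summed to 337 to 366, 149.6 to 162, 118 to 146 and 78.0 to 106 normalized counts, with Gpc3 and Epcam at 0. None of the 5 fibroblast, 3 endothelial or 3 adipocyte markers passed the filter, with sums of at most 26.3, 4.07 and 4.24. All libraries come from the single line EC4, so these sums are transcript levels in that line and do not count cells of those types. In bulk RNA, a change in some cells of the line and a change in every cell cannot be told apart. The part of these markers in the Acadm, Cpt1a and other member differences was not tested.

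The MYC state divided the same genes. At 200 µM, Acadm was 3.03-fold lower and Cpt2 1.25-fold lower in MYC high than in MYC low cells, while Hadha, Acadvl and Slc25a20 were 1.09-fold to 1.20-fold higher. At 10 µM, Cpt1a was 1.94-fold lower in MYC high cells and Acadl, Hadha and Acadm were lower by smaller steps, while Cpt2 and Acadvl were higher. At 200 µM 5 of 8 members passed the test, 3 higher and 2 lower, where 74.4% of all tested genes passed, 36.8% higher and 37.6% lower. At 10 µM 6 of 8 passed, 2 higher and 4 lower, where 71.5% of all tested genes passed, 35.7% higher and 35.8% lower. These shares stand near those of all genes. The median log2 difference of the members was 0.00 at 200 µM and -0.10 at 10 µM, against -0.0031 and 0.0015 over all tested genes. The median size of the difference regardless of sign was 0.17 at 200 µM and 0.24 at 10 µM on the log2 scale, against 0.49 and 0.39 over all tested genes. All comparisons draw on the same 4 groups of libraries and are not independent of each other. The share of mitochondrially encoded reads also differed by MYC state, as given above, and its part in these differences was not tested.

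**Figure D1:**
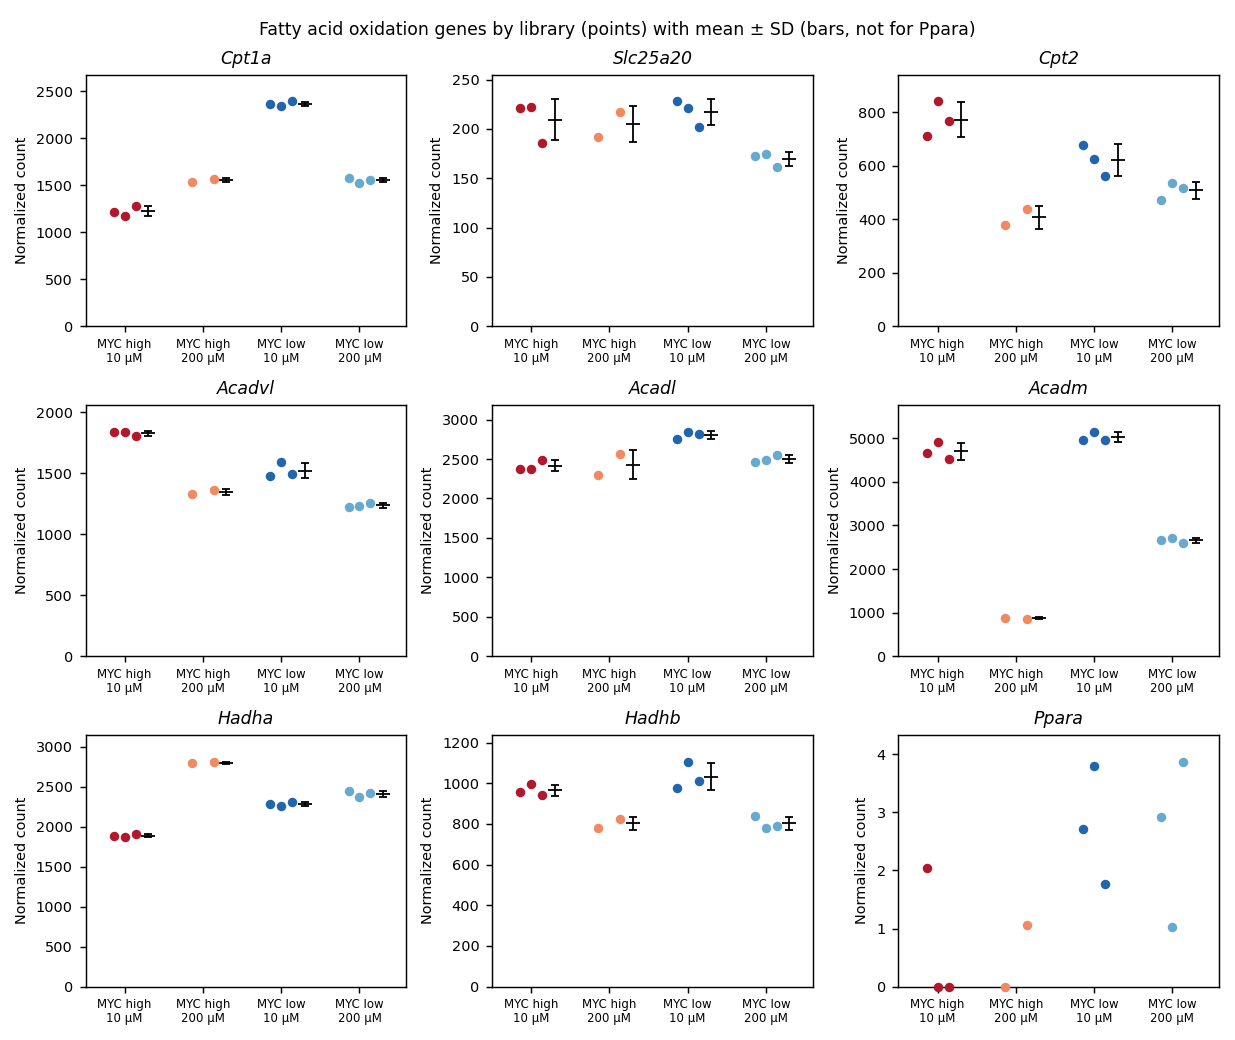
Normalized count of each of the 9 genes (y axis, linear, from 0) in each library (points) by group (x axis), with bars for mean ± SD except for Ppara, which had 0 to 3.87 normalized counts. Acadm stands at 866 to 890.0 in 200 µM MYC high cells, below every other library, whereas Hadha is highest in that group.

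Levels between genes were compared per kilobase of the longest principal transcript of GENCODE M21. Averaged over the 11 libraries, Acadm had 1727 normalized counts per kb and Acadl 1329, which placed them at the 96.1st and 94.6th percentile of 10973 tested genes with a length. Acadvl followed with 689.5 normalized counts per kb, Hadha with 574, Hadhb with 444, Cpt1a with 390 and Cpt2 with 250. Slc25a20 was the lowest of those tested, with 112 normalized counts per kb at the 40.6th percentile. The sum over the 9 genes was 6063 ± 104 normalized counts per kb in 10 µM MYC high cells (n = 3), 4052 ± 153 in 200 µM MYC high cells (n = 2), 6624 ± 125 in 10 µM MYC low cells (n = 3) and 4837 ± 6.17 in 200 µM MYC low cells (n = 3, all SD). Acadm alone made up 37.8% ± 0.999 of that sum in 10 µM MYC high cells, 10.6% ± 0.608 in 200 µM MYC high cells, 37.1% ± 0.0968 in 10 µM MYC low cells and 26.9% ± 0.603 in 200 µM MYC low cells.

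Cpt1a (ENSMUSG00000024900), on chromosome 19, encodes the liver isoform of the enzyme that commits long-chain fatty acids to oxidation. In MYC high cells its libraries read 1219, 1169 and 1278 normalized counts at 10 µM and 1538 and 1570.1 at 200 µM. In MYC low cells they read 2365, 2339 and 2392 normalized counts at 10 µM and 1579.5, 1528 and 1559 at 200 µM. At 200 µM the MYC high libraries lay inside the range of the MYC low ones, and at 10 µM the 2 states parted in opposite directions from that common level. The log2 difference between 10 and 200 µM was -0.35 ± 0.0435 in MYC high cells (limma SE, adjusted p = 5.06e-09) and 0.60 ± 0.0389 in MYC low cells (adjusted p = 4.04e-16). These responses differed from each other by -0.95 ± 0.0584 (limma interaction, adjusted p = 1.45e-16). Between MYC high and MYC low cells the log2 difference was -0.95 ± 0.0389 at 10 µM (limma adjusted p = 1.22e-22), and at 200 µM it was -0.0013 with a 95% interval of -0.0896 to 0.0869 (adjusted p = 0.980).

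Cpt2 (ENSMUSG00000028607), on chromosome 4, encodes the inner-membrane partner of CPT1A. MYC high cells read 710.0, 839.5 and 766 normalized counts at 10 µM and 377 and 437 at 200 µM. MYC low cells read 676, 626 and 560.0 normalized counts at 10 µM and 472, 534 and 517 at 200 µM. No pair of compared groups overlapped, and the order of the MYC states turned between media: MYC high cells were the higher at 10 µM and the lower at 200 µM. The log2 response to low methionine was 0.92 ± 0.0771 in MYC high cells (limma adjusted p = 2.06e-13) and 0.29 ± 0.0689 in MYC low cells (adjusted p = 4.80e-04), and the responses differed by 0.63 ± 0.103 (adjusted p = 1.93e-06). MYC high minus MYC low was 0.31 ± 0.0689 at 10 µM and -0.32 ± 0.0771 at 200 µM (limma adjusted p = 1.13e-04 and 3.49e-04).

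Slc25a20 (ENSMUSG00000032602), the carnitine-acylcarnitine carrier gene on chromosome 9, varied least within the shuttle. It read 221, 222 and 185 normalized counts in 10 µM MYC high cells and 192 and 217 in 200 µM MYC high cells. MYC low cells read 228, 221 and 202 normalized counts at 10 µM and 173, 175 and 162 at 200 µM. Only the MYC low libraries at 200 µM stood apart, below all others. The gene rose at 10 µM in MYC low cells (log2 difference 0.35 ± 0.0963, limma adjusted p = 0.00193), and in MYC high cells its difference was 0.03 with a 95% interval of -0.19 to 0.25 (adjusted p = 0.808). The interaction was -0.32 ± 0.144 and missed the threshold (limma adjusted p = 0.0536). It was called without replicate 2 of 200 µM MYC high cells (adjusted p = 0.0310), without replicate 1 or 2 of 10 µM MYC high cells (0.0413 and 0.0374) or without replicate 3 of 10 µM MYC low cells (0.0373). At 200 µM the gene was higher in MYC high cells by 0.27 ± 0.108 (limma adjusted p = 0.0252). That call was lost without replicate 3 of MYC high cells (0.18, adjusted p = 0.240) or replicate 3 of MYC low cells (0.23, adjusted p = 0.0770), and with scaling to total reads (0.18, adjusted p = 0.123).

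The windows before the starts of Cpt1a and Cpt2 are given because these partner genes responded in opposite directions in MYC high cells. They come from RefSeq on GRCm38.p6, which held all 9 genes, and stop before the first annotated exon base. Capitals mark AGGTCA, the hexamer bound by many nuclear receptors, GGGCGG, the GC box, CCAAT and the E-box CACGTG, on either strand. Cpt1a lies at chr19:3323051-3323284 on the plus strand and Cpt2 at chr4:107923611-107923839 on the minus strand, both written 5′ to 3′ along the gene.
Cpt1a: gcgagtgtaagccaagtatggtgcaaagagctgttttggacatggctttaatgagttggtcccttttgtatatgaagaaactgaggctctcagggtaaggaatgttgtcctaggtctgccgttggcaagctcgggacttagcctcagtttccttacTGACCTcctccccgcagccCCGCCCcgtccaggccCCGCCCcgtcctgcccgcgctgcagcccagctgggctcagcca
Cpt2: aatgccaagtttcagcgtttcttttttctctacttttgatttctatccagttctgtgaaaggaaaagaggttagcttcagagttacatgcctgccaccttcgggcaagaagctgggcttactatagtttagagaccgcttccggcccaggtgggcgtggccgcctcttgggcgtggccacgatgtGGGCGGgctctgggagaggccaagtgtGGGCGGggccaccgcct
The Cpt1a sequence holds 1 such hexamer, on the minus strand of the gene, and 2 GC boxes, and the Cpt2 sequence holds 2 GC boxes. Neither shows CACGTG, the sequence bound by MYC and its relatives.

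Acadm (ENSMUSG00000062908), the medium-chain acyl-CoA dehydrogenase gene on chromosome 3, had the widest range of the 9. MYC high cells read 4666, 4905 and 4514 normalized counts at 10 µM and 890.0 and 866 at 200 µM. MYC low cells read 4965, 5148 and 4959 normalized counts at 10 µM and 2664, 2714 and 2599 at 200 µM. The 4 groups did not overlap, and the highest group mean was 5.72 times the lowest. At 10 µM the MYC states lay close together, and they lay far apart at 200 µM. The log2 response to low methionine was 2.42 ± 0.0386 in MYC high cells (limma adjusted p = 2.06e-35) and 0.92 ± 0.0346 in MYC low cells (adjusted p = 4.10e-23). The responses differed by 1.50 ± 0.0518 (limma interaction, adjusted p = 5.65e-24). MYC high minus MYC low was -1.60 ± 0.0386 at 200 µM (limma adjusted p = 1.42e-29) and -0.10 ± 0.0346 at 10 µM (adjusted p = 0.0112). The small difference at 10 µM was no longer called without replicate 3 of MYC high cells (-0.07, adjusted p = 0.0841) or replicate 2 of MYC low cells (-0.08, adjusted p = 0.0732).

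The 250 bases before the RefSeq start of Acadm, at chr3:153944644-153944893 of GRCm38.p6 on the minus strand, are shown because this gene moved most. The same 4 motifs were marked in capitals.
Acadm: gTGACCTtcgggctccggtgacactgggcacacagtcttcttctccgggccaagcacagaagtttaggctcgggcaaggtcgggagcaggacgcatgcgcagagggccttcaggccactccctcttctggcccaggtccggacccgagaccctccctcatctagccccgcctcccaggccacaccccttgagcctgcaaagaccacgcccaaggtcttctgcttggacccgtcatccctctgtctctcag
A single AGGTCA stands at the far 5′ end, read on the minus strand of the gene, and 64% of the bases are G or C. Over all 9 windows of 250 bases, AGGTCA on either strand occurred in Cpt1a, Acadvl and Acadm, or 3 of 9, against 14.02% of 32851 such windows. The GC box occurred in 7 of 9, all but Acadvl and Acadm, against 32.7% of windows. The only GC box of Hadha is a site that is also counted for Hadhb, because the windows of these genes overlap. AGGTCA repeated with 1 base between, the form that PPARA and its partner RXR bind, occurred in none of the 9 and in 0.0335% of windows. CACGTG and TATAAA occurred in none of the 9, against 6.02% and 12.4% of windows. CCAAT occurred in Cpt1a alone, against 33.8% of windows. That CCAAT begins 19 bases before the start and is cut by the end of the printed part, so it is not marked there. These are matches of letters and say nothing of binding.

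Acadvl (ENSMUSG00000018574), on chromosome 11, encodes the membrane-bound dehydrogenase for very long chains. It read 1835, 1840.0 and 1801 normalized counts in 10 µM MYC high cells and 1326 and 1363 in 200 µM MYC high cells. MYC low cells read 1481, 1591 and 1494 normalized counts at 10 µM and 1226, 1228 and 1259 at 200 µM. The order was the same within either medium and within either MYC state, with 10 µM above 200 µM and MYC high above MYC low and no overlap. Low methionine raised it by 0.44 ± 0.0442 in MYC high cells and by 0.30 ± 0.0395 in MYC low cells on the log2 scale (limma adjusted p = 2.53e-11 and 3.66e-08). MYC high exceeded MYC low by 0.26 ± 0.0395 at 10 µM (limma adjusted p = 2.64e-07) and by 0.12 ± 0.0442 at 200 µM (adjusted p = 0.0148). The call at 200 µM was lost without replicate 3 of 200 µM MYC high cells (0.10, adjusted p = 0.109) and with scaling to total reads (0.03, adjusted p = 0.496). In GENCODE M21 its exons share 1151 of 2686 bases with Dvl2 on the opposite strand, and the strand setting of the authors' counting is not given in the sources used here. Dvl2 itself differed by -0.11 ± 0.0457 between 10 and 200 µM in MYC high cells and by 0.03 ± 0.0409 in MYC low cells (limma adjusted p = 0.0278 and 0.571). These responses differed by -0.14 ± 0.0613 (limma interaction, adjusted p = 0.0486). Like Acadvl, Dvl2 was higher in MYC high cells in both media, by 0.28 ± 0.0457 at 200 µM and 0.14 ± 0.0409 at 10 µM (limma adjusted p = 1.25e-06 and 0.00281). The part of shared reads in the Acadvl differences was not tested.

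Acadl (ENSMUSG00000026003), the long-chain dehydrogenase gene on chromosome 1, was the steadiest member by range. It read 2378, 2371 and 2493 normalized counts in 10 µM MYC high cells, 2295 and 2558 in 200 µM MYC high cells, 2748, 2846 and 2818 in 10 µM MYC low cells and 2457, 2483 and 2556 in 200 µM MYC low cells. Only the MYC low libraries at 10 µM stood above the rest, and the highest group mean was 1.16 times the lowest. The log2 response to low methionine was 0.17 ± 0.0374 in MYC low cells (limma adjusted p = 2.17e-04), while in MYC high cells the difference was -0.0059 with a 95% interval of -0.0906 to 0.0788 (adjusted p = 0.903). The MYC high minus MYC low difference was -0.22 ± 0.0374 at 10 µM (limma adjusted p = 3.23e-06), and at 200 µM it was -0.04 ± 0.0418 (adjusted p = 0.345). Without replicate 3 of 200 µM MYC high cells the difference at that medium became a call at -0.12 (adjusted p = 0.0248).

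Hadha (ENSMUSG00000025745) encodes the alpha subunit of the trifunctional protein, which hydrates and dehydrogenates long-chain enoyl-CoA, and its transcript was lower at 10 µM in both MYC states. It read 1889.7, 1865 and 1911 normalized counts in 10 µM MYC high cells and 2793 and 2811 in 200 µM MYC high cells. MYC low cells read 2281, 2265 and 2308 normalized counts at 10 µM and 2447, 2373 and 2421 at 200 µM. MYC high cells held both the lowest and the highest group, with MYC low cells between them. The log2 response to low methionine was -0.57 ± 0.0378 in MYC high cells (limma adjusted p = 3.15e-16) and -0.08 ± 0.0338 in MYC low cells (adjusted p = 0.0417), a difference of -0.49 ± 0.0507 (adjusted p = 1.54e-10). MYC high minus MYC low was -0.27 ± 0.0338 at 10 µM and 0.22 ± 0.0378 at 200 µM (limma adjusted p = 4.16e-09 and 3.95e-06). The small fall in MYC low cells was lost without replicate 1 or 3 at 200 µM (-0.07 and -0.08, adjusted p = 0.126 and 0.0902) and without replicate 1, 2 or 3 at 10 µM (-0.08, -0.07 and -0.09, adjusted p = 0.0897, 0.113 and 0.0589).

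Hadhb (ENSMUSG00000059447) encodes the beta subunit, the thiolase that releases acetyl-CoA. MYC high cells read 956, 997 and 945 normalized counts at 10 µM and 780.3 and 826 at 200 µM. MYC low cells read 978, 1105 and 1011 normalized counts at 10 µM and 839, 779.8 and 789 at 200 µM. The 10 µM libraries lay above all 200 µM libraries, and within each medium the MYC states overlapped. The log2 response was 0.27 ± 0.0559 in MYC high cells and 0.36 ± 0.050 in MYC low cells (limma adjusted p = 5.98e-05 and 8.97e-08). The difference between these responses was -0.09, with a 95% interval of -0.25 to 0.06 (limma adjusted p = 0.284). MYC high minus MYC low was -0.09 at 10 µM with an interval of -0.19 to 0.0085 (limma adjusted p = 0.0945), and became a call without replicate 1 of MYC low cells (-0.13, adjusted p = 0.0378). At 200 µM it was 0.0015 with an interval of -0.11 to 0.11 (adjusted p = 0.983).

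Hadha and Hadhb stand head to head on chromosome 5, Hadha on the minus and Hadhb on the plus strand, and the bases between their starts are shown because the genes moved in opposite directions. In GENCODE M21 85 bases separate the starts, at chr5:30155163-30155247 of GRCm38.p6, while the RefSeq starts leave 272. The sequence is written on the plus strand, along Hadhb, with GGGCGG in capitals.
Hadha to Hadhb: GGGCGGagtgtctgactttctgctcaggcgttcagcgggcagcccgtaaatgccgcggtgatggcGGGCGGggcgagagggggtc
It holds 2 GC boxes and none of the other motifs. Low methionine lowered Hadha by 32.6% and raised Hadhb by 20.2% in MYC high cells. The Hadha to Hadhb ratio per kb of transcript was 0.998 ± 0.0399 in 10 µM MYC high cells (n = 3), 1.78 ± 0.0642 in 200 µM MYC high cells (n = 2), 1.13 ± 0.0772 in 10 µM MYC low cells (n = 3) and 1.53 ± 0.0422 in 200 µM MYC low cells (n = 3, all SD). With the transcript lengths used, the 2 subunits were thus close to equal per kb at 10 µM in both MYC states. With the same lengths, alpha exceeded beta at 200 µM in both MYC states.

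**Figure D2:**
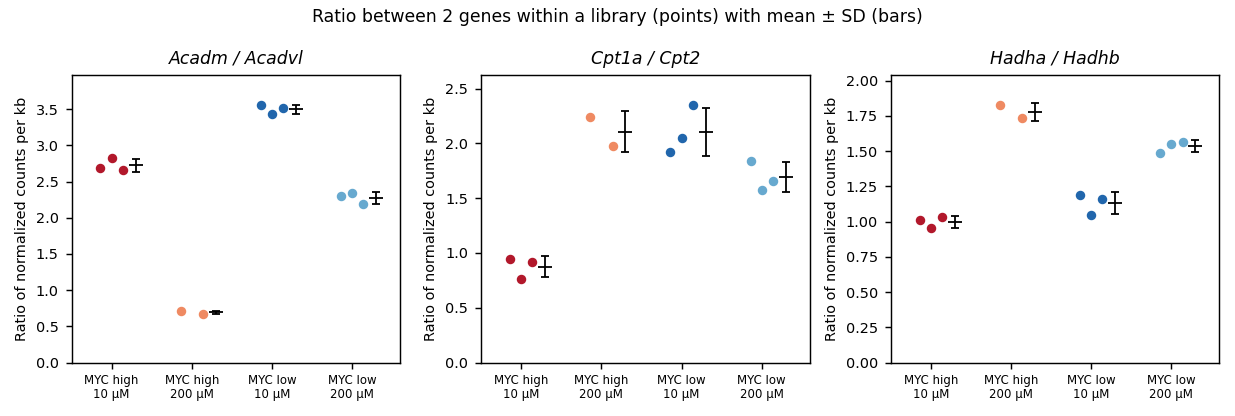
Ratios of normalized counts per kb between member genes (y axes, linear, from 0) in each library (points) by group (x axis), with bars for mean ± SD. The Acadm to Acadvl ratio is 0.692 in 200 µM MYC high cells and 2.28 to 3.50 in the other groups.

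Other ratios within the pathway moved by group as well. Per kb, Cpt1a to Cpt2 was 0.875 ± 0.0962 in 10 µM MYC high cells, 2.11 ± 0.189 in 200 µM MYC high cells, 2.11 ± 0.218 in 10 µM MYC low cells and 1.69 ± 0.137 in 200 µM MYC low cells (SD). Cpt2 exceeded Cpt1a per kb in 10 µM MYC high cells, and Cpt1a exceeded Cpt2 in the other groups. The Acadm to Acadl ratio per kb was 1.82 ± 0.122 in 10 µM MYC high cells, 0.340 ± 0.0326 in 200 µM MYC high cells, 1.68 ± 0.0260 in 10 µM MYC low cells and 0.997 ± 0.0391 in 200 µM MYC low cells. Medium-chain exceeded long-chain dehydrogenase transcripts at 10 µM in both MYC states, was level with them in 200 µM MYC low cells and was below them in 200 µM MYC high cells. The ratios are descriptions and were given no test. Whether a ratio lies above or below 1 depends on the transcript length taken for each gene. Its fold change between groups does not depend on these lengths.

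Ppara (ENSMUSG00000022383), on chromosome 15, was barely detected. It read 2.04, 0 and 0 normalized counts in 10 µM MYC high cells, 0 and 1.06 in 200 µM MYC high cells, 2.71, 3.79 and 1.76 in 10 µM MYC low cells and 2.93, 1.02 and 3.87 in 200 µM MYC low cells. Pooled over libraries this was 2 and 1 reads in MYC high cells at 10 and 200 µM, and 9 and 8 reads in MYC low cells at 10 and 200 µM. In RPM (reads scaled to the library total), MYC high cells had 0.0562 (exact 95% counting interval 0.0068 to 0.203) at 10 µM and 0.0442 (0.0011 to 0.247) at 200 µM. MYC low cells had 0.236 (0.108 to 0.449) at 10 µM and 0.225 (0.0971 to 0.443) at 200 µM. The intervals overlapped and cover counting error only, and a library with 0 reads allows up to 3. With no filter on low values, limma gave a log2 difference between MYC high and MYC low cells of -1.34 at 10 µM and -1.24 at 200 µM (adjusted p = 0.0526 and 0.114), on a scale that depends on the added 1. Neither value passed the threshold of 0.05, and both had the same direction. With 1 to 9 reads per group, they cannot decide whether Ppara differed between MYC states.

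**Figure D3:**
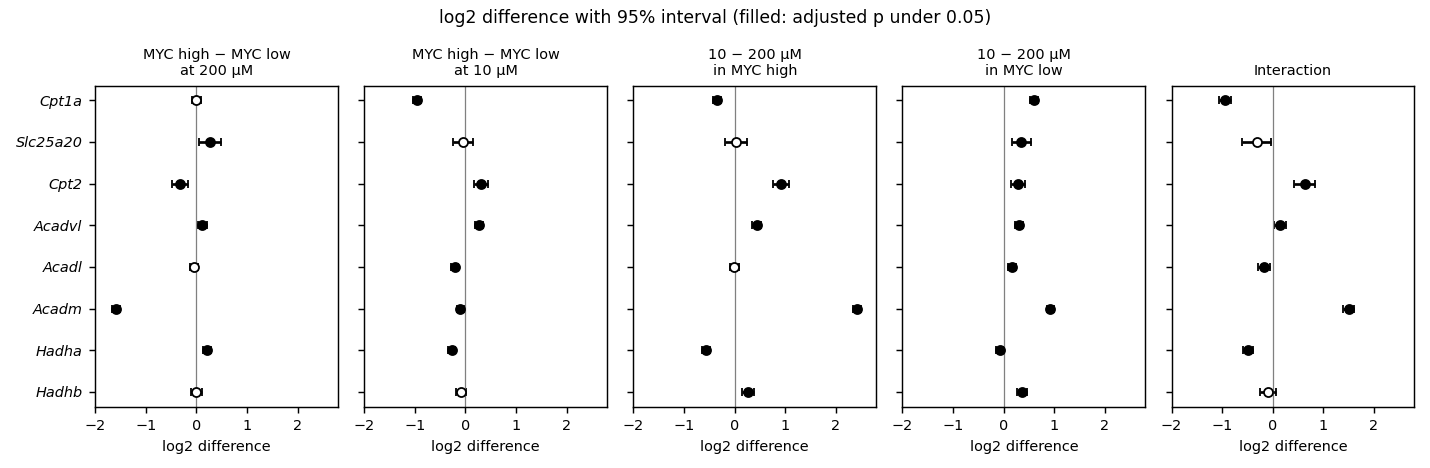
Log2 differences with 95% intervals (x axis) for the 8 tested members (rows) in the comparisons of MYC state and of methionine and their interaction (panels), with filled points for adjusted p under 0.05. Acadm has the largest values, 2.42 for 10 minus 200 µM in MYC high cells and -1.60 for the MYC states at 200 µM, and Cpt1a changes sign between MYC states.

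The difference between the methionine responses of the MYC states passed the limma threshold for 6 of 8 members, with 3 positive and 3 negative, where 60.4% of all tested genes passed, 31% positive and 29.4% negative. Positive values stand for a response that was higher in MYC high cells. Acadm, Cpt2 and Acadvl were positive, and Cpt1a, Hadha and Acadl negative. The Acadvl value of 0.14 ± 0.0593 (adjusted p = 0.0362) was the weakest. It was lost without replicate 2 of 200 µM MYC high cells (0.12, adjusted p = 0.123), without replicate 3 of 200 µM MYC low cells (0.13, 0.0752), without replicate 1 or 2 of 10 µM MYC high cells (0.14 and 0.14, 0.0608 and 0.0502), and without replicate 1 or 3 of 10 µM MYC low cells (0.12 and 0.13, 0.0954 and 0.0822). The Acadl value of -0.17 ± 0.0560 (limma adjusted p = 0.00810) was lost without replicate 3 of 200 µM MYC high cells (-0.09, adjusted p = 0.178).

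By the measure of likeness used, the root mean square difference between log2 group means centred over the 4 groups, no other member was among the closest genes of Cpt1a, Acadm or Hadha. Closest to Cpt1a were Tpm1 (0.0252), Cltb (0.0499) and Megf11 (0.0544). Closest to Acadm were Gm28221 (0.0447), Jak3 (0.0787) and Tmem198b (0.0799), and closest to Hadha were Zscan29 (0.0112), Fbxo30 (0.0141) and Crtc1 (0.0172). The nearest member ranked 850th for Cpt1a (Acadl), 1849th for Acadm (Cpt2) and 2374th for Hadha (Acadl), and Hadhb ranked 4959th for Hadha. The likeness rests on 4 groups, so many genes can lie close.

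The wider pathway was followed in 7 lists with 114 listed genes, of which 87 were tested. Values for single genes of these lists are log2 differences ± limma's SE, and genes said to rise, fall or differ passed its threshold. Beside the counts of these lists stand the shares of all tested genes given above: 37.9% higher and 37.9% lower at 10 against 200 µM in MYC high cells, 29.4% and 29.9% in MYC low cells, 36.8% and 37.6% between MYC states at 200 µM, and 35.7% and 35.8% at 10 µM. The methionine response was higher in MYC high cells for 31% of all tested genes and lower for 29.4%. The list of other mitochondrial beta-oxidation is not of fatty acid oxidation alone. It also holds genes of propionyl-CoA (Pcca, Pccb, Mcee and Mmut) and of branched-chain amino acid breakdown (Ivd, Acad8, Acadsb and Hsd17b10). All of those but Acad8 are among its rises in MYC high cells. In this list, 14 of 21 genes rose, 3 fell and 4 did not pass at 10 against 200 µM in MYC high cells. In MYC low cells 7 rose, 4 fell and 10 did not pass. The medians of the log2 differences were 0.59 and 0.04. The rises in MYC high cells with the smallest adjusted p were Hadh, the short-chain hydroxyacyl-CoA dehydrogenase (1.85 ± 0.047), Acaa2, the mitochondrial thiolase (2.27 ± 0.074), and Acads, the short-chain dehydrogenase (1.29 ± 0.049). Acot2, a mitochondrial thioesterase that splits acyl-CoA, fell by 1.89 ± 0.076 in MYC high and by 1.54 ± 0.068 in MYC low cells (limma SE), and Acad8 and Acad10 fell by 0.33 and 0.35 in MYC high cells. The response was higher in MYC high cells than in the MYC low ones for 14 genes and lower for 3, with the smallest adjusted p for Hadh (1.64 ± 0.064) and Acaa2 (1.76 ± 0.100). Between MYC states, 4 genes were higher, 15 lower and 2 not passed in 200 µM MYC high cells, and 9 higher, 8 lower and 4 not passed at 10 µM. Hadh (-1.21 ± 0.047), Acads (-1.04 ± 0.049) and the branched short-chain dehydrogenase gene Acadsb (-1.04 ± 0.051) had the smallest adjusted p at 200 µM, and Acaa2 (1.28 ± 0.067) at 10 µM. The 4 genes higher at 200 µM were Acad8 (0.59), Acad9 (0.28), Hsd17b10 (0.27) and Eci1 (0.39).

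Of 9 tested of 13 listed genes of fatty acid activation and uptake, 8 rose in low methionine in MYC high cells, where 37.9% of all tested genes did, and Slc27a4 did not pass (0.09). All 9 rose in MYC low cells, where 29.4% of all tested genes did. Their medians were 0.88 and 0.54. In MYC high cells they included Acsl5 (1.23 ± 0.040) and Acsl4 (0.88 ± 0.035), which join fatty acids to coenzyme A, the uptake protein gene Slc27a1 (2.39 ± 0.101) and Dbi, the acyl-CoA binding protein gene (1.45 ± 0.050). At 200 µM 2 were higher, 3 lower and 4 not passed in MYC high cells, with Slc27a1 at -2.29 ± 0.101 and Fabp5, a fatty acid binding protein gene, at 2.06 ± 0.115. At 10 µM 6 were higher, 2 lower and 1 not passed. The response was higher in MYC high cells for 6 genes, lower for Acsl3 (-0.52 ± 0.079) and not passed for 2.

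Among 8 tested of 10 genes of malonyl-CoA and carnitine handling, 5 rose, 1 fell and 2 did not pass in MYC high cells at 10 against 200 µM, and 3 rose and 5 did not pass in MYC low cells. Acaca and Acacb encode the carboxylases that make malonyl-CoA, the inhibitor of CPT1. Acaca rose by 0.65 ± 0.045 in MYC high and by 0.62 ± 0.040 in MYC low cells. Mlycd, which encodes the enzyme that breaks down malonyl-CoA, rose by 0.33 ± 0.086 in MYC high cells. It did not pass in MYC low cells (0.06 ± 0.077). Acacb rose by 2.78 ± 0.337 in MYC high cells, where Acacb averaged 55.1 normalized counts at 10 µM and 7.18 at 200 µM, while its MYC low means were 11.2 and 9.20. Slc25a45, a mitochondrial carrier gene, rose by 1.92 ± 0.112 in MYC high cells, and Crat, the carnitine acetyltransferase gene, fell there by 0.17 ± 0.042. The carnitine transporter gene Slc22a5 was lower in MYC high than in MYC low cells at both 10 µM (-0.81 ± 0.073) and 200 µM (-0.89 ± 0.082). Counts between MYC states were 1 higher, 4 lower and 3 not passed at 200 µM, and 3 higher, 4 lower and 1 not passed at 10 µM, and the methionine response differed for 4 of 8, 3 higher and 1 lower. Cpt1b, the muscle isoform of CPT1, had 8 reads over all 11 libraries and was not tested.

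Of the 7 genes of electron transfer from acyl-CoA, 4 rose, 2 fell and 1 did not pass in MYC high cells in low methionine, where 75.8% of all tested genes differed, and 1 rose and 6 did not pass in MYC low cells, where 59.4% differed. Flad1, the FAD synthase gene, rose by 1.49 ± 0.111 in MYC high cells and by 0.60 ± 0.100 in MYC low cells. Etfa, a subunit of the electron transfer flavoprotein, rose by 0.33 ± 0.043 in MYC high cells, while Etfdh, which passes the electrons to ubiquinone, fell by 0.27 ± 0.066 and Slc25a32, a mitochondrial carrier gene, fell by 0.36. Between MYC states Etfa was higher in MYC high cells, by 0.57 ± 0.038 at 10 µM and 0.31 ± 0.043 at 200 µM. Between MYC states 3 genes were higher in MYC high cells, 2 lower and 2 not passed at 200 µM, and 4 higher, 1 lower and 2 not passed at 10 µM. The response differed for 4 of 7, 3 higher and 1 lower in MYC high cells.

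Peroxisomal beta-oxidation shortens very long chains, and none of the 9 members belongs to it. Of its 18 tested of 21 listed genes, 14 were lower, 1 higher and 3 not passed in 200 µM MYC high cells, where 37.6% of all tested genes were lower, and 12 lower, 3 higher and 3 not passed at 10 µM, where 35.8% were lower, with medians of -0.76 and -0.52. Crot, the carnitine octanoyltransferase gene, was lower in MYC high cells (log2 difference -1.25 ± 0.067 at 200 µM and -0.69 ± 0.060 at 10 µM). Acot8, a peroxisomal thioesterase gene, was the 1 gene higher at 200 µM (0.93). In low methionine 13 rose, 2 fell and 3 did not pass in MYC high cells, and 7 rose, 1 fell and 10 did not pass in MYC low cells. Scp2, which holds a thiolase, rose by 1.31 ± 0.049 in MYC high cells and 0.37 ± 0.044 in MYC low cells. Acot8 fell by 1.36 ± 0.119 and Abcd3, a peroxisomal transporter gene, by 0.42 in MYC high cells. The response was higher in MYC high cells for 10 genes and lower for 3, where 31% and 29.4% of all tested genes were.

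**Figure D4:**
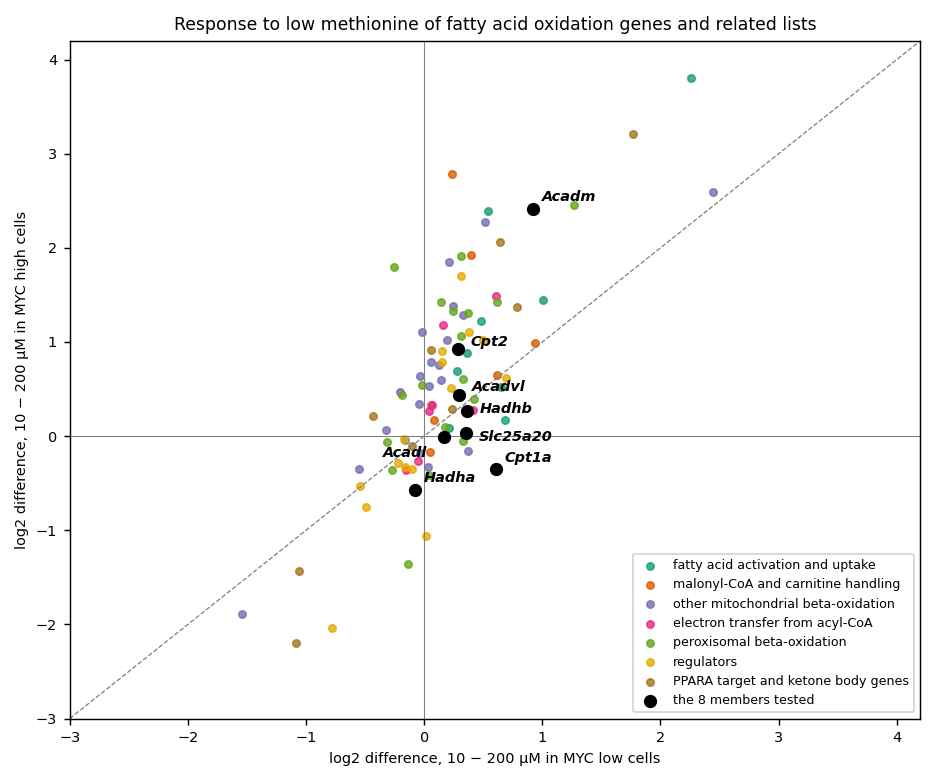
Log2 difference between 10 and 200 µM methionine in MYC low cells (x axis) and MYC high cells (y axis) for the 8 tested members (black, named) and 87 tested genes of 7 related lists (colours), with a dashed line of equal response. The axes draw on different libraries, Acadm lies at 0.92 and 2.42, and Cpt1a lies at 0.60 and -0.35.

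Ppard and Pparg, relatives of Ppara, and the partner genes Rxra and Rxrb passed the filter, while Rxrg had 0 reads in all 11 libraries. Ppard read 568 normalized counts on average in 10 µM MYC high cells, 174 in 200 µM MYC high cells, 485 in 10 µM MYC low cells and 391 in 200 µM MYC low cells, and rose in low methionine by 1.70 ± 0.075 in MYC high cells. Rxra, a partner of the PPAR receptors, was lower in MYC high cells than in MYC low cells (log2 difference -0.86 ± 0.035 at 10 µM and -0.78 ± 0.040 at 200 µM). Rxrb, another partner, was higher in MYC high cells (0.59 ± 0.049 at 10 µM and 0.58 ± 0.055 at 200 µM). In low methionine Rxra rose and Rxrb fell in both MYC states. Esrra, a nuclear receptor of mitochondrial genes, rose by 1.02 ± 0.049 in MYC high cells and by 0.50 ± 0.043 in MYC low ones. Sirt1, a deacetylase gene, fell by 2.04 in MYC high cells and by 0.78 in MYC low cells. Prkaa2, a catalytic subunit of AMP-activated kinase, rose by 1.10 ± 0.055 in MYC high cells, and the corepressor gene Nrip1 was lower in 10 µM MYC high cells (-1.28 ± 0.061). Of 15 tested of 19 listed regulators, 7 rose, 6 fell and 2 did not pass in MYC high cells, and 7 rose, 5 fell and 3 did not pass in MYC low cells. Between MYC states 5 were higher, 8 lower and 2 not passed at 200 µM, and 6 higher, 5 lower and 4 not passed at 10 µM. The response differed for 10 of 15, 6 higher and 4 lower in MYC high cells. Ppargc1a, a coactivator of oxidation genes, had 49 reads over all libraries and was not tested.

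Of 23 listed PPARA target and ketone body genes only 9 could be tested. Pdk4, Cyp4a10, Cyp4a31 and G0s2 had 0 reads in every library. Among those tested 6 rose, 2 fell and 1 did not pass in MYC high cells in low methionine, and 4 rose, 3 fell and 2 did not pass in MYC low cells. Plin2, which coats lipid droplets, fell by 2.20 ± 0.034 in MYC high and by 1.08 ± 0.030 in MYC low cells. Acat1, the thiolase that uses acetyl-CoA, rose by 2.06 ± 0.047 in MYC high cells and 0.64 ± 0.042 in MYC low cells, and Oxct1, which activates ketone bodies for use, rose by 0.91 ± 0.042 in MYC high cells. At 10 µM both Acat1 and Oxct1 were higher in MYC high cells than in MYC low cells, by 0.97 ± 0.042 and 0.76 ± 0.038. Between MYC states 3 genes were higher in MYC high cells, 5 lower and 1 not passed at 200 µM, and 6 higher, 2 lower and 1 not passed at 10 µM, and the response differed for 6 of 9, 5 higher and Plin2 lower.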

How the data were processed

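RNA of 11 libraries of EC4 cells was prepared with a Qiagen kit and NEBNext Ultra II reagents, per the labels' protocols. The build GRCm39 and the tools FastQC, fastp, STAR, SAMtools, HTSeq and DESeq2 are named, with no version or order, per the submitters' processing notes. Annotation release and strandedness of the counting: not given in the sources used here. The values are a signal that the authors deposited as normalized counts. In every library 100% of them were whole multiples of 1 step within 0.001, so whole reads could be recovered, with size factors of 0.875 to 1.13. Other columns numbered 0.

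Of 55416 identifiers, 52083 had a symbol in GENCODE M21 (GRCm38), which also gave transcript lengths and overlaps. Promoter windows are RefSeq's on GRCm38.p6, a build that differs from that of the files. No protein sequences were used. The 12909 genes averaging 10 or more normalized counts were analysed as log2(value + 1), a scale that understates changes of low genes, with limma 3.58.1 in R 4.3.3, 1 mean per group over all libraries, a trend on expression and adjustment by Benjamini-Hochberg within each comparison; degrees of freedom were 7 residual and 29.0 prior. Because the spread is pooled, the group with only 2 libraries is taken to vary as the larger groups do. The interaction is the response to 10 against 200 µM in MYC high cells minus that in MYC low cells. The fit was tested on simulated data for MYC high against MYC low at 200 µM, with the same setting of spread for every gene. It recovered 73% of 1.5-fold changes and 89% of 2-fold changes, with 7 false calls among 169. Smaller changes were not simulated. Alternatives covered scaling, pseudocount, filter, the samples fitted, edgeR 4.0.16 and DESeq2 1.42.0 on the recovered reads, the replicate number as a block, and each library left out in turn.

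The members, lists and tests were chosen with earlier results of these data known, although the rule for the members uses no measured value. All members are named in each comparison. Of each related list up to 4 genes with the smallest adjusted p per comparison are named, with some of the genes against the majority of their list, and the 3 genes nearest in pattern to Cpt1a, Acadm and Hadha.

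Some genes of the related lists are counted but not reported here by name.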

Additional observations from a re-analysis of the deposited data

Results flagged for a closer look

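For 6 members the response to low methionine differed between MYC states by limma's interaction test across 12909 genes, a test that 60.4% of all genes passed. The difference of responses, MYC high minus MYC low on the log2 scale, was largest for Acadm at 1.50 (adjusted p = 5.65e-24), whose response was an increase in both states. For Cpt1a it was -0.95 (adjusted p = 1.45e-16), with a decrease in MYC high cells and an increase in MYC low cells in all libraries. For Cpt2 it was 0.63 (adjusted p = 1.93e-06) and for Hadha -0.49 (adjusted p = 1.54e-10). For Acadl it was -0.17 (adjusted p = 0.00810) and for Acadvl 0.14 (adjusted p = 0.0362), and both calls depended on single libraries.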

How the results depend on the processing

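The 31 calls among 40 member results (8 genes, 5 comparisons) kept direction, and 25 of them stayed past the threshold under every alternative. The exceptions were Slc25a20 and Acadvl between MYC states at 200 µM, Acadm between MYC states at 10 µM, Hadha in MYC low cells, and the interactions of Acadvl and Acadl. Beyond left-out libraries, calls were lost for Slc25a20 at 200 µM with DESeq2 (adjusted p = 0.0542), for Hadha in MYC low cells with total reads, without a filter or with DESeq2 (adjusted p = 0.122, 0.0574 and 0.0787), and for the Acadvl interaction without a filter or with DESeq2 (adjusted p = 0.0599 and 0.0872). Scaling to total reads gained calls for Acadl at 200 µM (-0.13, adjusted p = 0.00579) and Hadhb at 10 µM (-0.15, adjusted p = 0.00717), and a stricter filter gained the Slc25a20 interaction (adjusted p = 0.0489). Values that turned sign were never calls. For MYC high minus MYC low at 200 µM, Hadhb (0.0015) became -0.0099 with TMM, -0.0846 with total reads, -0.0095 with edgeR and -0.0026 with the replicate block, and Cpt1a (-0.0013) became 0.0069 with DESeq2 and 0.0020 with the block. In MYC high cells the methionine difference of Acadl (-0.0059) became 0.0117 with TMM, 0.0412 with total reads, 0.0089 with edgeR and 0.0065 with the block. Leaving out 1 library in turn gave -0.0163 to 0.0136 for Cpt1a, -0.122 to 0.0340 for Acadl and -0.0399 to 0.0428 for Hadhb between MYC states at 200 µM, -0.104 to 0.0313 for Slc25a20 at 10 µM, and -0.0595 to 0.120 for Slc25a20 and -0.0840 to 0.0721 for Acadl between media in MYC high cells. The cause of these turns was not tested. Replicate numbers did not pair the libraries: same-numbered libraries correlated at -0.0490 to 0.0257, and 2 of 11 correlated best with their own number. With the replicate block, limma called 9495 and 9214 genes between MYC states at 200 and 10 µM, 9668 and 7653 between media in MYC high and MYC low cells and 7663 interactions, and the Slc25a20 interaction became a call (-0.35, adjusted p = 0.0392). edgeR on the recovered reads called 9583, 9386, 9718, 7915 and 7757 genes in the same order, against 9600, 9232, 9787, 7666 and 7798 by limma. Over the alternatives 4 to 5 members were called between MYC states at 200 µM, 5 to 7 at 10 µM, 6 between media in MYC high cells, 7 to 8 in MYC low cells and 5 to 7 for the interaction. Depth limits Ppara, with 1 to 9 reads per group.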
